A study of Mus musculus with 12 samples.

Results

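The SynCAM genes *Cadm1*, *Cadm2*, *Cadm3* and *Cadm4* were examined for binding by SLM2, a KH-domain RNA-binding protein and splicing regulator of neurons that is encoded by *Khdrbs3*. A peak was assigned to a gene when its centre lay within the annotated span of the gene and on its strand (GENCODE vM21 on mm10, the GRCm38 build). By this rule 74 of 2057 whole-brain peaks (3.60%, 95% exact binomial interval 2.84 to 4.50) and 1 of 178 hippocampal peaks (0.562%, 0.0142 to 3.09) lay in SynCAM genes. These intervals, like all others given, cover counting error only and treat peaks as independent, which neighbouring peaks are not. Binding was mapped by enhanced cross-linking and immunoprecipitation (eCLIP), in which RNA cross-linked to SLM2 by ultraviolet light is precipitated, sequenced and set against size-matched input, the RNA of the same gel range without precipitation. All mice were 30 days old, and wild-type (WT) whole brain and WT hippocampus each gave 2 eCLIP and 2 input libraries. Hippocampus of *Slm2* KO mice, labelled as the negative control of the series, gave 2 eCLIP and 2 input libraries that were not analysed here. Each tissue is represented by a single list of peaks merged over its replicates, so no spread between replicates can be given, and listed peaks of a gene are not replicates of each other. A lysate was made of one whole brain or of pooled hippocampi, and the libraries of the tissues were amplified separately. The number of peaks in a tissue therefore depends on material and depth as well as on binding, and these cannot be told apart here.

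SynCAM proteins, also called nectin-like proteins or CADMs, are adhesion molecules of the immunoglobulin superfamily. Their extracellular immunoglobulin domains bind SynCAM partners across the synaptic cleft, and their short cytoplasmic tails bind band 4.1 proteins and PDZ-domain scaffolds such as CASK. CADM1 (SynCAM 1) is known to promote the assembly of excitatory synapses, CADM2 (SynCAM 2) is a neuronal and axonal partner of it, and CADM3 and CADM4 pair between axons and myelinating glia. Exons of *Cadm1* that encode the stalk next to the membrane are alternatively spliced.

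SLM2 binds AU-rich RNA, and its core recognition element is UWAA, where W is A or U. The element was counted as every start of UUAA or UAAA on the strand of the gene. The following peak sequences are shown because the results turn on them. They are the only peak of *Cadm1*, the only hippocampal peak with its closest whole-brain neighbour, and from the *Cadm2* whole-brain peaks a pair with high enrichment, the one richest in UWAA and the one closest to an annotated exon. Sequences are mm10 reference RNA from 5′ to 3′, *Cadm1* on the plus strand and *Cadm2* on the minus strand, with UUAA and UAAA in capitals.
Cadm1, whole brain, chr9:47838895-47839085: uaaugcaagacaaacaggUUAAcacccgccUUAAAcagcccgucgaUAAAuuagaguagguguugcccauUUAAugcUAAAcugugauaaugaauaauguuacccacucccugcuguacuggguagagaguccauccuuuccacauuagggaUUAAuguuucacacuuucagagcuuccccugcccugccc
Cadm2, hippocampus, chr16:67490743-67490856: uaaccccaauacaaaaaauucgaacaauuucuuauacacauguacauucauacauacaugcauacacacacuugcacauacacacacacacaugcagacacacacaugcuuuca
Cadm2, whole-brain neighbour of the hippocampal peak, chr16:67490629-67490721: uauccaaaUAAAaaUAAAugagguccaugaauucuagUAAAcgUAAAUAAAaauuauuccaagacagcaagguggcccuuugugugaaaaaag
Cadm2, highest log2 fold change, chr16:67024814-67025007: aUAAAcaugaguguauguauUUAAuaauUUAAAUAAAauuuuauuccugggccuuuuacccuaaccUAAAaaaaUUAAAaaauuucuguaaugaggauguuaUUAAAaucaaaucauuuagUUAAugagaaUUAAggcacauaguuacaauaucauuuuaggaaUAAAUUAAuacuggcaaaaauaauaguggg
Cadm2, next in log2 fold change, chr16:67351876-67352005: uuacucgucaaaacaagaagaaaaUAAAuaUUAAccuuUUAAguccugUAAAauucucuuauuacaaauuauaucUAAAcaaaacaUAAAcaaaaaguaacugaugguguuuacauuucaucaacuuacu
Cadm2, most UWAA at the centre, chr16:66723005-66723087: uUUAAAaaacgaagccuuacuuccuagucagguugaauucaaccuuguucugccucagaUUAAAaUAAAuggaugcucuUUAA
Cadm2, closest to an annotated exon, chr16:66932165-66932252: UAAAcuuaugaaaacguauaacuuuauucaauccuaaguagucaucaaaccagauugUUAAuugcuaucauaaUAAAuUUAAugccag
All of these except the hippocampal peak hold the element, from 4 starts in the peak closest to an annotated exon to 14 in the peak of highest log2 fold change.

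SLM2 binding within the SynCAM family fell almost wholly on *Cadm2*. *Cadm2* held 73 whole-brain peaks (3.55% of the list, 2.79 to 4.44) and the hippocampal peak. *Cadm1* held 1 whole-brain peak and 0 hippocampal peaks, and *Cadm3* and *Cadm4* held 0 in either tissue. For a single gene a count of 0 allows a share of up to 0.179% of the whole-brain list and 2.05% of the hippocampal list (upper bounds of the same exact interval). Thus 2 of the 4 genes had a whole-brain peak, where 1.92% of 21951 protein-coding genes (421) had one. *Cadm2* alone had at least 2, where 0.843% of the genes (185) did. In hippocampus 1 of the 4 had a peak, where 0.378% (83) had one. No peak of either tissue lay on the opposite strand within any of the 4 spans, and each SynCAM peak lay in no other gene.

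The 4 genes differ widely in length, and the number of peaks of a gene was therefore read beside genes of like length, 0.8 to 1.25 times as long. *Cadm2* (ENSMUSG00000064115, chr16:66655421-67620908, minus strand) spans 965.488 kb. Of the 73 protein-coding genes of like length, itself included, 38 (52.1%) had a whole-brain peak, the median gene had 1, and *Cadm2* had the most. *Cadm1* (ENSMUSG00000032076, chr9:47530173-47857637, plus strand) spans 327.465 kb, and 67 of 359 genes of its length (18.7%) had a peak. The highest count among them was 14, in the tomosyn gene *Stxbp5l*. *Cadm3* (ENSMUSG00000005338, chr1:173333258-173367695, minus strand) spans 34.438 kb, and 19 of 2459 genes of like length (0.773%) had a whole-brain peak. *Cadm4* (ENSMUSG00000054793, chr7:24482023-24504539, plus strand) spans 22.517 kb, and 11 of 2739 (0.402%) did. For *Cadm3* and *Cadm4* the absence of a peak was thus the common outcome at their length. In hippocampus 13 of the 73 genes of the length of *Cadm2*, 8 of the 359 of that of *Cadm1*, 3 of the 2459 of that of *Cadm3* and 0 of the 2739 of that of *Cadm4* had a peak. A listed peak requires RNA to be present, and the level of each transcript was not analysed here.

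**Figure D1:**
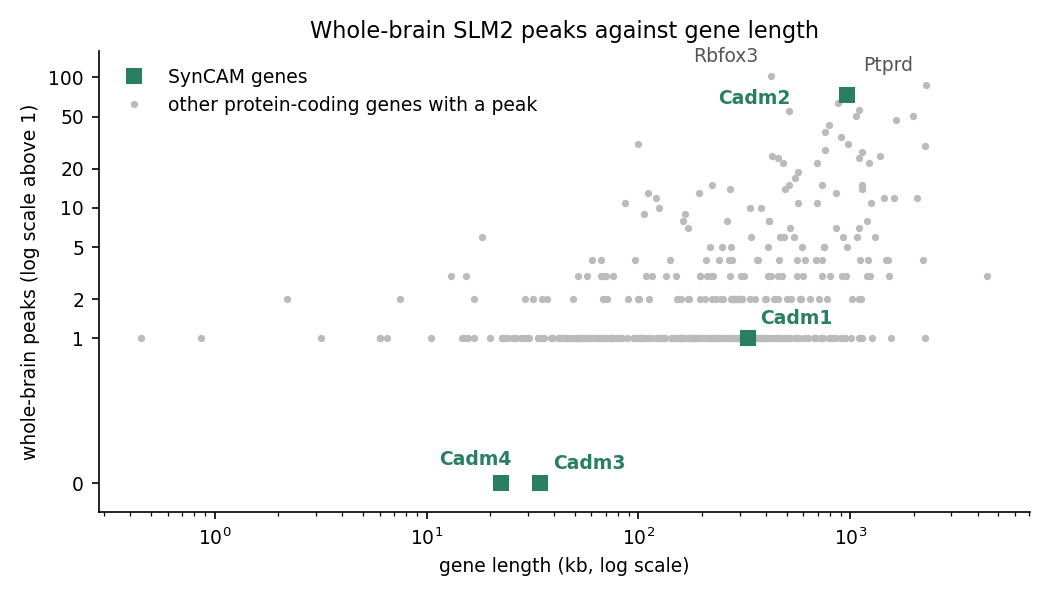
Number of whole-brain SLM2 peaks (vertical axis, log scale above 1) against gene length in kb (horizontal axis, log scale) for the SynCAM genes (squares) and the other protein-coding genes with a peak (dots). Cadm2, with 73 peaks in 965.488 kb, stands near the top, Cadm1 has 1 peak in 327.465 kb, and Cadm3 and Cadm4 lie at 0.

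By number of whole-brain peaks *Cadm2* was the 3rd of 421 protein-coding targets, after *Rbfox3* with 102 and *Ptprd* with 87 and before *Pcdh9* with 64. *Rbfox3* encodes a neuronal splicing factor, *Ptprd* a receptor phosphatase of the synapse and *Pcdh9* a protocadherin. Per length, *Cadm2* had 7.56 peaks per 100 kb, the 22nd of the 421 targets, which had a median of 0.853. Its neighbours in this order were *Nrxn2*, which encodes a presynaptic neurexin, with 7.97 and *Pcdh9* with 7.30. Among the 74 targets with at least 5 peaks, *Cadm2* was the 10th, and their median was 2.61. *Cadm1* had 0.305 peaks per 100 kb and was the 346th. In length *Cadm2* was the 42nd of the targets.

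Along *Cadm2* the peaks followed intron 1. This intron, 666.836 kb long and 69.1% of the gene, held 68 of the 73 whole-brain peaks (93.2%), or 10.2 per 100 kb. The other 10 introns, 288.843 kb in sum, held 5 peaks, or 1.73 per 100 kb. These were 1 in intron 2 (27.689 kb), 2 in intron 4 (67.271 kb) and 2 in intron 10 (66.878 kb), and 7 introns held none. UWAA density was 1.96 starts per 100 positions in intron 1, 1.99 in intron 2, 1.82 in intron 4 and 1.73 in intron 10. In the 7 introns without a peak it ran between 1.59 and 2.66, and introns 5 (2.42), 7 (1.98), 9 (2.22) and 11 (2.66), all of at most 15.694 kb, were denser in UWAA than intron 1. No peak overlapped an exon at its centre, as for 94.7% of whole-brain peaks.

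Within intron 1 the peaks were unevenly spread. The first 350 kb from the start of the gene held 47 and the rest of the intron 21. In steps of 50 kb, the stretch from 250 to 300 kb held 21 peaks and the next one 12, while those from 200 to 250 kb and from 350 to 400 kb held 0. The densest 100 kb held 33 peaks (45.2%) within 87.102 kb (chr16:67274016-67361197). The densest 10 kb lay at its 5′ end and held 12 peaks in 9.218 kb. UWAA density was 2.08 per 100 positions in the 100 kb and 2.66 in the 10 kb, against 1.91 over all introns of the gene. The 50-kb step with the most peaks also had the highest UWAA density, 2.16, in a range of 1.68 to 2.16, but the empty step just before it had 2.07. The 33 peaks of the densest 100 kb had a median log2 fold change of 2.31, and the other 40 peaks had 2.66. The cluster was thus lower in median enrichment, although 2 of the 5 most enriched peaks of the gene lay in it.

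Neighbouring centres of *Cadm2* peaks were a median of 3504 nt apart, from 100 nt to 116.255 kb. Of the 72 distances between neighbours, 26 were at most 1000 nt and 15 at most 500 nt, while 15 exceeded 20 kb. In all, 8045 nt of the gene were covered. Joining peaks less than 50 nt apart left 68 sites, so the count was little affected by fragments of a single site.

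**Figure D2:**
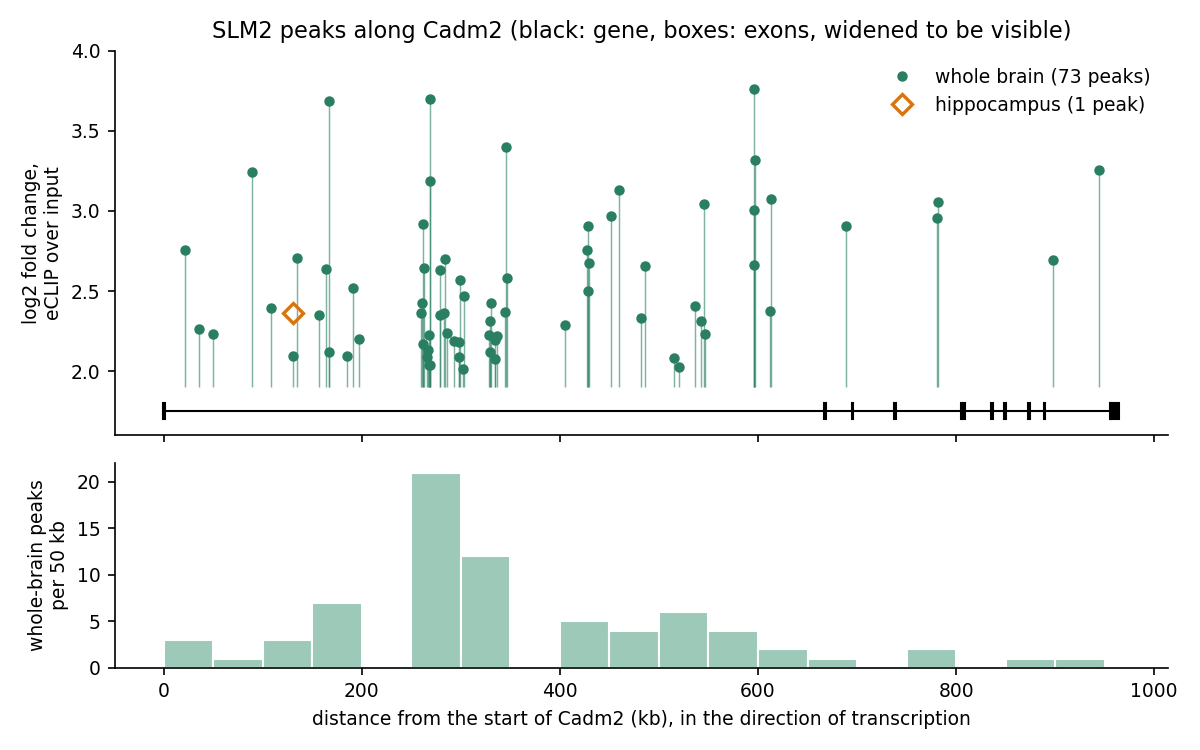
Upper panel, log2 fold change of eCLIP over input (vertical axis) of each Cadm2 peak in whole brain (filled dots) and hippocampus (open diamond) against distance from the start of the gene in kb; the black line is the gene and boxes are its exons. Lower panel, whole-brain peaks per 50 kb. Peaks crowd in intron 1, with 21 between 250 and 300 kb and 12 in the next step, and few lie among the later exons.

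The peaks of *Cadm2* were deep in introns. Their distance to the nearest annotated exon had a median of 238.729 kb and reached 333.296 kb. It exceeded 100 kb for 58 peaks and was at most 10 kb for 2, or for 1 when only exons of protein-coding transcripts were counted, and no peak lay within 500 nt of an exon. The closest, chr16:66932165-66932252 in intron 2 (log2 fold change 2.90), lay 6581 nt before an exon that no protein-coding transcript contains and held 4 UWAA starts. Its distance to the nearest exon of a protein-coding transcript was 21022 nt. The next, chr16:66723005-66723087 in intron 10 (log2 fold change 2.69), was the closest to an exon of a protein-coding transcript and lay 8298 nt after an exon of 120 nt (chr16:66731385-66731504) that 2 of the 4 protein-coding transcripts spanning it contain. This was the only annotated alternative exon of *Cadm2* with a peak within 10 kb downstream. Another, chr16:66676834-66676898 (log2 fold change 3.25), lay in the same intron, 12328 nt before an exon of 126 nt that all 4 spanning transcripts contain. The 5 peaks outside intron 1 had log2 fold changes of 2.69 to 3.25 with a median of 2.96, and the 68 in intron 1 ranged between 2.02 and 3.76 with a median of 2.37. The few peaks outside intron 1 were thus all above its median.

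Enrichment of *Cadm2* peaks was moderate within the whole-brain list. The lists hold peaks with a log2 fold change of at least 2 and a −log10 of the irreproducible discovery rate (IDR), which measures the consistency of replicates, of at least 2. The log2 fold change had a median of 2.41 (2.02 to 3.76) over the 73 *Cadm2* peaks and of 2.56 (2.00 to 6.04) over the 1983 whole-brain peaks outside SynCAM genes. At least 3 was reached by 13 *Cadm2* peaks (17.8%, 9.84 to 28.5) and by 451 of the others (22.7%, 20.9 to 24.7), and these intervals overlap. Of protein-coding genes, 0.989% (217) had a whole-brain peak at that level. The −log10 p-value had a median of 4.87 (2.94 to 11.3) in *Cadm2* and of 4.29 in the other peaks, the −log10 IDR had 2.57 and 2.42, and the peak length had 106 nt in both. Across the 73 peaks −log10 p went with peak length (Pearson's r = 0.471, Spearman's rho = 0.585) and log2 fold change weakly with UWAA density (r = 0.234, rho = 0.191). These are descriptions across sites of the same libraries.

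The peak of highest log2 fold change in *Cadm2* was chr16:67024814-67025007, 595.998 kb from the start, with 3.76, a −log10 p of 11.0 and 14 UWAA starts in 194 nt. It had a neighbour at chr16:67024345-67024415 with 3.32. Next came chr16:67351876-67352005, at the 3′ edge of the densest 10 kb, with 3.70 and a −log10 p of 9.11. Then followed chr16:67454036-67454091 with 3.68 in 56 nt and a −log10 p of 2.97, and chr16:67275099-67275193 with 3.40 and 6.43. High enrichment thus occurred both in the dense stretch and far from it.

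UWAA was denser at *Cadm2* peaks than beside them. Density was taken in the 101 nt around each centre and in 2 flanks of the same size centred 500 nt to either side. The study used the same window sizes, but on another peak call and without sequences that are over 20% repeat-masked, which were kept here. The 73 peaks averaged 4.42 ± 1.87 starts per 100 positions and their flanks 2.43 ± 1.53 (SD over peaks), a mean difference of 1.98. The centre was above its flanks in 55 peaks (75.3%, 63.9 to 84.7), below in 15 and equal in 3, while 66.5% of all whole-brain peaks (1367) were above theirs. The 1983 other whole-brain peaks averaged 3.56 and their flanks 1.78, a difference of 1.79, with 66.2% above (64.0 to 68.2). The intervals of these shares overlap. The level of UWAA was higher in *Cadm2*, at the peaks and in their flanks alike. A start was present at 72 of the 73 *Cadm2* centres (98.6%, 92.6 to 100.0) and at 83.0% of the others (81.3 to 84.6). In *Ptprd* it was present at 85 of 87 (97.7%, 91.9 to 99.7) and in *Pcdh9* at 60 of 64 (93.8%, 84.8 to 98.3), so this trait was shared with the genes closest in peak count. At least 4 starts were present at 51 (69.9%, 58.0 to 80.1) and at 47.7% of the others (45.5 to 49.9), against 49.4% in *Ptprd* (38.5 to 60.4) and 57.8% in *Pcdh9* (44.8 to 70.1). *Cadm2* introns were themselves rich in A and U, and the AU content was 68.9% at its peaks and 66.1% in their flanks, against 63.0% and 60.4% for the other peaks. Across *Cadm2* peaks UWAA density and AU content went together (r = 0.505, rho = 0.518), and the part of AU content in the difference from the list was not tested.

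**Figure D3:**
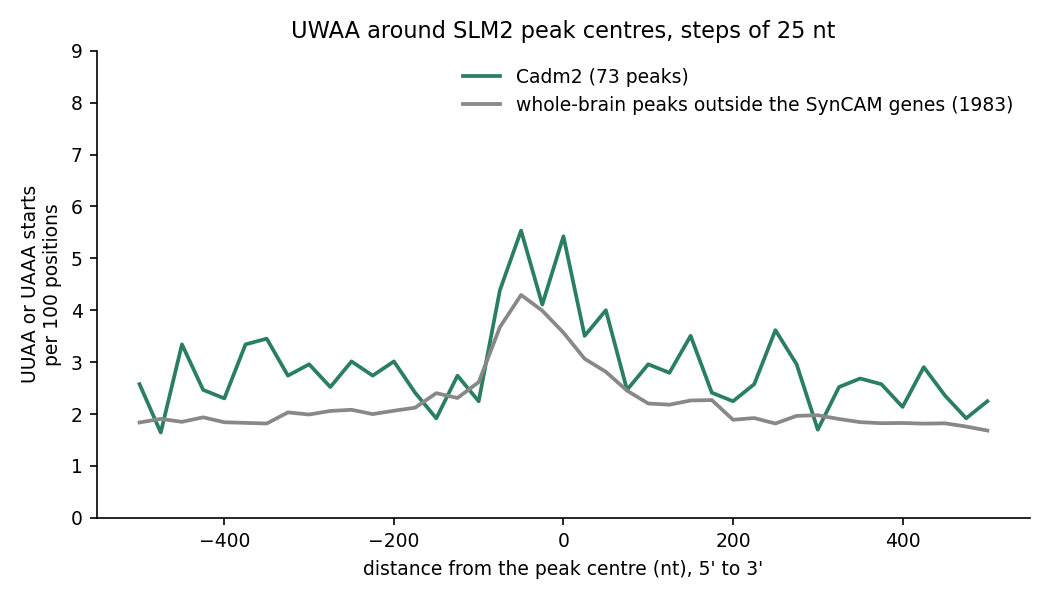
Starts of UUAA or UAAA per 100 positions (vertical axis) in steps of 25 nt around the peak centre (horizontal axis, nt) for the 73 Cadm2 peaks (green) and the 1983 whole-brain peaks outside SynCAM genes (grey). Both rise within 75 nt of the centre, to 5.53 in Cadm2 and 4.29 in the others at 50 nt upstream of the centre, and Cadm2 runs higher at most distances in the flanks.

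The contrast between centre and flanks was larger where the window was repeat-masked, a mark of interspersed repeats and low-complexity sequence. In 40 *Cadm2* peaks more than 20% of the window was repeat-masked, and these had 5.10 starts per 100 positions at the centre and 2.31 in the flanks, with 35 above their flanks (87.5%, 73.2 to 95.8). In the 33 others the values were 3.59 and 2.58, with 20 above (60.6%, 42.1 to 77.1), and the 2 intervals overlap. Both groups had the higher density at the centre. The mean difference was 2.79 in the masked windows and 1.00 in the others, and at least 4 starts were present at 34 of 40 (85.0%) and at 17 of 33 (51.5%). The median log2 fold change was 2.46 in the masked and 2.37 in the less masked windows. The share of windows masked above 20% was 54.8% in *Cadm2* (42.7 to 66.5) and 50.8% in the other peaks (48.6 to 53.1).

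**Figure D4:**
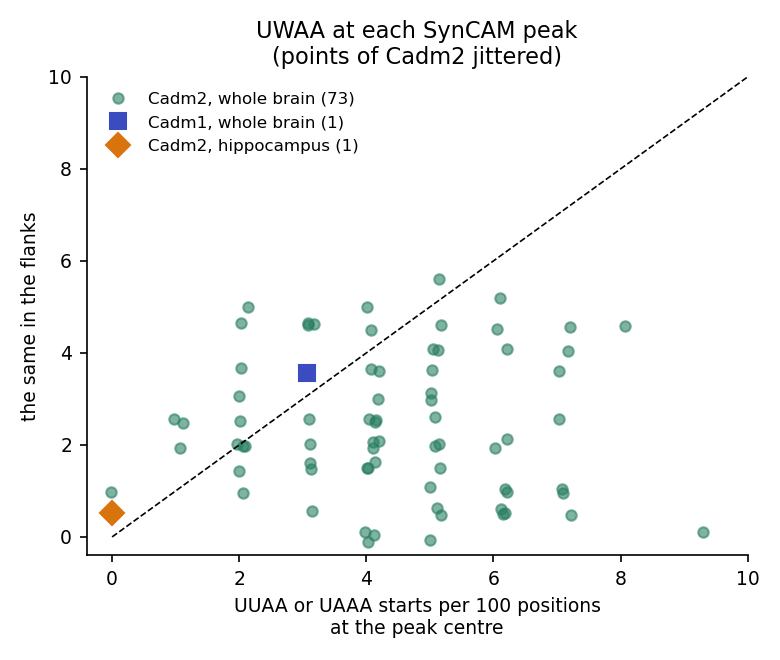
Starts of UUAA or UAAA per 100 positions at the centre of each SynCAM peak (horizontal axis) against the same in its flanks (vertical axis); the dashed line marks equality. Of the 73 Cadm2 whole-brain peaks 55 lie below the line, that is, higher at the centre, while the Cadm1 peak (3.06 and 3.57) and the hippocampal peak (0 and 0.510) lie above it.

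The highest UWAA density of a *Cadm2* peak was 9.18 per 100 positions at chr16:66723005-66723087, with 0 in its flanks. It was followed by 8.16 at chr16:67454036-67454091, with 4.59 in its flanks. In the third place 7 peaks tied at 7.14, with 0.510 to 4.59 in their flanks, among them the peak of highest log2 fold change. The longer element of SLM2, UUAAAAA or UUUAAAA, was present at 12 *Cadm2* centres (16.4%, 8.79 to 27.0) and at 19.0% of the other whole-brain centres, with 19 starts at the *Cadm2* centres and an average of 9.5 in the flanks. This excess lay in the 40 windows masked above 20%, with 15 starts against 3 in the flanks. In the 33 less masked windows there were 4 starts against 6.5. For comparison GGAGG or GGUGG was present at 10 *Cadm2* centres (13.7%, 6.77 to 23.8) and at 23.2% of the other whole-brain centres. The 7-nt words in most *Cadm2* windows were AAAUAAA (17 peaks, flank average 4.5), AAAAUAA (16, flank average 5) and AAUAAAA (16, flank average 4.5). These words overlap each other, and AAAUAAA was present at 16.3% of the other whole-brain centres.

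Most UWAA-rich sequence of the SynCAM genes carried no listed peak. When introns were cut into windows of 101 nt, 1665 of 9457 windows of *Cadm2* (17.6%) held at least 4 starts, and 84 of these (5.05%) touched a whole-brain peak, against 1.59% of all windows. Of 190 windows with at least 7 starts, 21 (11.1%) did. *Cadm1* had 243 such windows of at least 4 starts in 3132 (7.76%), of which 1 touched its peak. *Cadm3* had 12 of 265 (4.53%) and *Cadm4* 6 of 199 (3.02%), and none touched a peak. The order of the genes by UWAA density of their introns, with 1.91 starts per 100 positions in *Cadm2*, 1.29 in *Cadm1*, 0.989 in *Cadm3* and 0.742 in *Cadm4*, was also their order by length.

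The single peak of *Cadm1* ranked high in its list by significance. It was 191 nt long (chr9:47838895-47839085), with a log2 fold change of 2.90, a −log10 p of 9.43 and a −log10 IDR of 3.76. Of the 2057 whole-brain peaks it was the 571st by log2 fold change, the 136th by −log10 p and the 69th by −log10 IDR. It lay 308.817 kb from the start, near the end of the gene and outside its longest intron of 192.301 kb. The stretch it lay in, between exons of 84 nt and 132 nt, holds small alternative exons of *Cadm1*. It lay 2125 nt after an exon of 54 nt (chr9:47836717-47836770) that 1 of 6 spanning transcripts contains, 9486 nt after an exon of 33 nt (chr9:47829377-47829409) in 3 of 6, and 20078 nt after the exon of 84 nt (chr9:47818734-47818817) in 3 of 6. The exon of 132 nt that follows the peak by 9082 nt (chr9:47848167-47848298) is in all 6. The peak held 7 UWAA starts, mostly toward its 5′ end. At the centre the density was 3.06 per 100 positions and in the flanks 3.57, so by this measure UWAA was not denser at the peak. Around the centre it was 3.54 within 100 nt, 2.40 within 500 nt, 1.85 within 1000 nt and 1.48 within 2000 nt, against 1.29 over the introns of the gene. Over the whole peak the density was 3.72, and the window at its centre held 3 of the 7 starts. These ranges are nested and each holds the peak, so they do not give the density at a set distance from it. The flanks centred 500 nt away, at 3.57, were not below the centre.

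In hippocampus the only SynCAM peak lay in intron 1 of *Cadm2*, 130.109 kb from the start (chr16:67490743-67490856, 114 nt). Its log2 fold change was 2.36, its −log10 p 2.27 and its −log10 IDR 3.38. Over the hippocampal list the median log2 fold change was 2.50, and 83 of 178 peaks had a −log10 p of at least 2. No UWAA start lay in the window around its centre, and 0.510 per 100 positions lay in the flanks. Of hippocampal peaks, 46.1% (82) were above their flanks and 67.4% held a start. As the printed sequence shows, its 3′ part is rich in CA repeats, and 74.6% of the peak is repeat-masked. It shared 0 nt with a whole-brain peak. Its closest whole-brain neighbour, chr16:67490629-67490721, lay 21 nt downstream, with a log2 fold change of 2.09, a −log10 p of 4.12 and 5 UWAA starts (5.10 per 100 positions, flanks 2.04). As this only hippocampal peak lay outside the densest 100 kb of *Cadm2*, none of the 33 whole-brain peaks there had a hippocampal counterpart. With 178 hippocampal and 2057 whole-brain peaks listed, most whole-brain peaks cannot have one. The share over all whole-brain peaks is not given here, so this is no trait of the stretch.

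*Cadm2* was set beside the genes closest to it in peak count and beside the 24 genes with at least 20 whole-brain peaks. The 87 peaks of *Ptprd* averaged 4.19 UWAA starts per 100 positions, with 2.03 in their flanks and 61 above (70.1%). The 64 of *Pcdh9* averaged 4.13, with 2.38 in their flanks and 45 above (70.3%). Their median log2 fold changes were 2.59 and 2.38, and neither gene had a hippocampal peak. *Rbfox3* differed, with 0.450 starts per 100 positions at its peaks and 0.590 in their flanks. Among the 24 genes *Cadm2* was the 5th by UWAA density at its peaks (median of the genes 4.20), the 12th by the difference from the flanks (median 1.97) and the 10th by the share of peaks above their flanks (median 72.4%). It was the 5th by the share of peaks in the longest intron, 93.2%, with a median of 46.6%. A higher share was found in *Mdga2* (100%), *Cntnap2* (96.7%), *Ncam2* (96.0%) and *Lrrtm4* (95.3%), and the next was *Nlgn1* (91.4%), all of which encode adhesion proteins of neurons or synaptic organizers. In *Lrrtm4* the longest intron is 99.0% of the gene, in *Cadm2* 69.1%, and in *Cntnap2* 26.4%.

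Genes of SynCAM-binding proteins and relatives were examined in the same way. A whole-brain peak was found in 1 of 29 such genes, and a hippocampal one in 0, where 1.92% and 0.378% of all protein-coding genes had one, so these counts were near the background. The gene with a peak was *Nectin3*, which encodes a related adhesion protein, with 1 intronic peak in 110.8 kb (chr16:46416655-46416745, log2 fold change 2.44, 5.10 UWAA starts per 100 positions and 0.510 in the flanks). It was 1 of 6 relatives and ligands, among them the other nectins and *Crtam*. None of 4 genes for band 4.1 proteins, of 13 for membrane-associated guanylate kinases and PDZ adaptors (*Cask* and the *Mpp* and *Lin7* genes among them) or of 6 for signalling partners such as *Farp1* had a peak. The 29 genes have a median length of 88.7 kb. Whole-brain peaks were found in 4 and hippocampal ones in 2 of 5 neuronal marker genes, beside the same background shares of 1.92% and 0.378%. The hippocampal ones lay in *Syt1* and *Rbfox3*, long genes of 513 and 422 kb with 55 and 102 whole-brain peaks. The marker genes were chosen with earlier results of these data known and were not set beside genes of like length. Their counts are therefore no check of the tissue. Of glial and vascular markers, 1 of 4 for oligodendrocytes (*Mbp*), 1 of 4 for astrocytes (*Slc1a2*), 0 of 3 for microglia and 0 of 2 for endothelium had a whole-brain peak, and none had a hippocampal one. At the background shares a count of 0 in lists this short is the common outcome. Peaks show binding and not expression, so the cells in which *Cadm2* RNA was bound were not resolved.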

How the data were processed

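Tissue from 30-day-old mice was cross-linked and taken through eCLIP. Per the labels, reads were processed with cutadapt 3.4, STAR 2.7.9 and UMI-tools 1.1.1 on mm10. The methods of the study name a CTK analysis and, in parallel, CLIPper peaks filtered by IDR, and the deposited lists carry the values of the latter kind. Each deposited list gives per peak a log2 fold change of eCLIP over input, a −log10 p-value and a score, the −log10 IDR, which the authors computed from 2 eCLIP and 2 input libraries; the meaning of these unnamed columns was taken from the study's column names. All listed values were at least 2 for log2 fold change and −log10 IDR. Deposited starts were raised by 1 nt to give 1-based coordinates, and ends were kept. The starts may be off by 1 nt, since 63 neighbouring whole-brain peaks are then separated by 1 nt. Depth per library is not in the lists used here.

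Peaks were assigned to GENCODE vM21 genes, and motifs were read from the soft-masked GRCm38 genome with samtools 1.23.1, Python 3.11.15, numpy 2.4.6, pandas 2.3.3 and scipy 1.17.1. Introns are the gaps between all annotated exons of a gene, and the motif counter was tested on simulated sequences. The members and gene lists were chosen with earlier results of these data known. Peaks named singly are the 5 of highest log2 fold change, the 3 nearest to an exon, those with most UWAA, where 7 tied in the third place and are given together, and every hippocampal one. The whole-brain neighbour of the hippocampal peak was chosen after its values were seen. A match to the sequencing adaptor of 10 nt was found at 20 whole-brain and 7 hippocampal peaks, none of them in a SynCAM gene. *Slm2* KO libraries were left out because no peak list of them was used here. Alternatives covered stricter thresholds, joined peaks, other windows and flanks and masked sequence.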

Additional observations from a re-analysis of the deposited data

How the results depend on the processing

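Of 79 alternative values computed for 16 results, 69 were counted as unchanged and none turned direction. This count is loose. The share of *Cadm2* peaks above their flanks, 75.3% in the main setting, was counted as unchanged at values from 60.6% to 79.5%. With windows of 25 nt on each side of the centre it was 65.8%. Many of the 69 were fixed in advance. Counts of 0, as in *Cadm3* and *Cadm4*, cannot rise under stricter thresholds or when peaks are joined. All whole-brain peaks had a −log10 p of at least 2, and no SynCAM peak matched the adaptor. Filters on these could therefore not change the whole-brain counts. When peaks below a log2 fold change of 3 were left out, 13 of the whole-brain peaks of *Cadm2* were left, 0 of *Cadm1* and 0 of the hippocampal ones of *Cadm2*. At a −log10 IDR of at least 3, 10 whole-brain peaks of *Cadm2* were left. Among genes with at least 5 peaks, *Cadm2* was the 10th by peaks per 100 kb. Counting hippocampal peaks within 100 nt of a whole-brain peak as shared gave 1 instead of 0. With at least 2 peaks, or with the same stricter fold change, 0 partner genes were left instead of 1. With exons of protein-coding transcripts only, 1 *Cadm2* peak instead of 2 lay within 10 kb of an exon. The difference in UWAA density between *Cadm2* centres and flanks was 1.00 in the 33 peaks with a centre at most 20% masked, an alternative chosen after seeing the data, where 60.6% were above their flanks (other whole-brain peaks 1.14 and 57.2%). With the flanks filtered likewise it was 1.51 in 23 peaks, 14 of them above (60.9%). Under the other windows and flanks it ran between 1.53 and 2.17. No paired analysis was possible because each list is merged over its replicates, and for the same reason no replicate could be left out. Depth and input level limit which sites could be listed, and a gene without a peak may be bound below the thresholds.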
